A study of Mus musculus with 6 samples.

Results

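The genes described here are the axon guidance ligands and receptors, taken from the count table by symbol: semaphorins of classes 3 to 7, plexins, neuropilins, Slits, Robos, netrins, Unc5 receptors, ephrins and Eph receptors. The rule took 67 of 25140 genes, 35 of them ligands and 32 receptors, and used no measured value. RNA was sequenced from primary cardiac fibroblasts of adult C57BL/6 mice at passage 1, 3 libraries with vehicle and 3 with TGFβ (transforming growth factor β, 10 ng/mL for 24 h), to ask how the growth factor changes transcription in these cells. Both groups had been grown in DMEM with 25 mM glucose and 10% serum and were moved to 1% serum at 80% confluence, 16 h before treatment. The labels and the methods name cardiac fibroblasts, whereas the study's results text calls the cells mouse embryonic fibroblasts. Libraries are called A, B and C (vehicle) and D, E and F (TGFβ) below, letters that only name the count columns.

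Guidance cues are secreted or membrane-bound proteins that attract or repel growing axons and also act on vessels, migrating cells and stroma. Secreted class 3 semaphorins signal through neuropilins, which hold the ligand, and plexins, whose cytoplasmic part acts on small GTPases, while most membrane-bound semaphorins bind plexins directly. Slits signal through Robo receptors, and secreted netrins through Dcc, neogenin and the Unc5 receptors. Ephrins sit on the cell surface, ephrin-A by a lipid anchor and ephrin-B by a transmembrane stretch, and bind Eph receptor tyrosine kinases on the neighbouring cell. In the developing heart, semaphorin and Slit signalling is known for its part in outflow tract, septum and vessel formation.

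Sequences just upstream of a RefSeq start site are shown for 4 of the genes with the largest differences. *Slit2* and *Ephb6* were higher with TGFβ, and *Slit3* and *Sema6d* were lower. Each is the 250 bases before a RefSeq start (GRCm38.p6), 5′ to 3′ on the gene's strand, which is the plus strand for all 4. Capitals mark matches on either strand to CAGAC (a SMAD element), TGANTCA (AP-1), CAGGTG (the E-box of SNAIL and ZEB factors) or GGAATG (TEAD). They lie at chr5:47982905-47983154 (*Slit2*), chr11:35121206-35121455 (*Slit3*), chr6:41605261-41605510 (*Ephb6*) and chr2:124653331-124653580 (*Sema6d*, the later of 2 windows).
Slit2: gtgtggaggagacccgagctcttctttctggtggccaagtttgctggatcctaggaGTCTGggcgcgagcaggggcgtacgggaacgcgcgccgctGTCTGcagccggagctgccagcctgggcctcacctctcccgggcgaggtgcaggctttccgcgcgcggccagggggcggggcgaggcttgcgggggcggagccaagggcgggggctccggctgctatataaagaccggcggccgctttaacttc
Slit3: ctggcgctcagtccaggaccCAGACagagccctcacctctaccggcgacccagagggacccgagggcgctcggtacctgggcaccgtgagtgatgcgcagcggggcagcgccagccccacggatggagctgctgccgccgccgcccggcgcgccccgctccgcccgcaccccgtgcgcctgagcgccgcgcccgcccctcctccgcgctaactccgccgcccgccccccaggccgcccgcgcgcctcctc
Ephb6: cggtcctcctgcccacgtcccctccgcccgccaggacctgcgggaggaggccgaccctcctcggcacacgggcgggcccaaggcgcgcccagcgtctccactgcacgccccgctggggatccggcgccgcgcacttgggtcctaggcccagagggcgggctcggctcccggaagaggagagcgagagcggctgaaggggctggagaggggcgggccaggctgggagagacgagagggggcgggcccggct
Sema6d: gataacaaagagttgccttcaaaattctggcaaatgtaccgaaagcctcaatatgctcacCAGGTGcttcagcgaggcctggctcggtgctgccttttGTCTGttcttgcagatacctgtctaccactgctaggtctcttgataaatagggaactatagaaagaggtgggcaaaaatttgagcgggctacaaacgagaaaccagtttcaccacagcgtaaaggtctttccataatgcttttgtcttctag
*Slit2* held 2 matches to the SMAD element, *Slit3* 1, the *Sema6d* window 1 and 1 to the E-box, and *Ephb6* none of the 4 motifs. The earlier *Sema6d* window, directly before the annotated start of the gene, held none either, and the window printed lies inside the annotated gene. Most of the *Slit3* window, with its SMAD match, also lies after the annotated start of that gene (35121224). Among all 32851 such windows, 42.2% held the SMAD element, 6.75% AP-1, 17.2% the E-box and 12.6% the TEAD motif. Of the windows of guidance genes, the SMAD element stood in 5 of 9 for genes called higher, in 4 of 20 for genes called lower and in 26 of 38 for genes that did not pass. AP-1 was in none of the 29 windows of called genes and in 3 of 38 windows of the others. These are letter matches, and no binding was measured. Windows were given for 51 of the 57 genes tested, *Plxna4* not among them.

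TGFβ lowered more guidance genes than it raised. Of the 57 that passed the low-count filter, 29 (50.9%) passed an adjusted p of 0.05 in edgeR's quasi-likelihood test, 9 higher and 20 lower, against 40.7% of all 14334 genes tested. The share called higher was 15.8%, against 20.5% of all genes, and the share called lower 35.1%, against 20.1%. The median log2 fold change (TGFβ over vehicle) was −0.23, where that of all genes was −0.00. A log2 fold change beyond 1 in size was found for 8 members (14.0%), 4 in each direction, against 6.77% of all genes. The TGFβ and vehicle libraries did not overlap for 31 members (54.4%), against 53.3% of all genes. Among ligands, 3 rose and 10 fell of 31 tested, and among receptors 6 rose and 10 fell of 26. At an adjusted p of 0.01, 8 rose and 8 fell, and the share of all genes at that threshold was not counted.

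**Figure D1:**
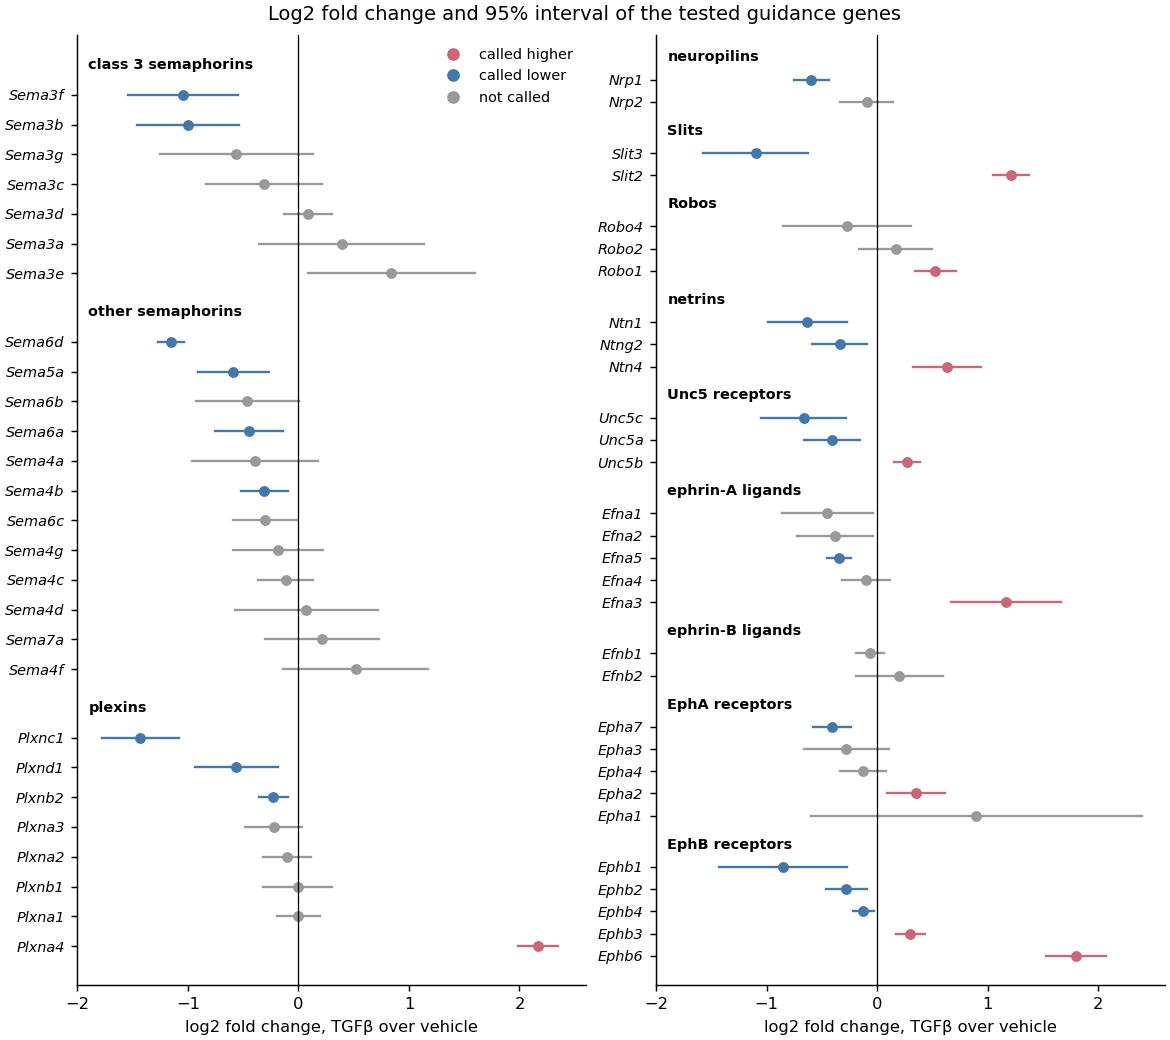
Log2 fold change of TGFβ over vehicle (points) with its 95% interval (lines) for the 57 tested guidance genes, by family. Red points are genes called higher, blue points genes called lower and grey points genes that did not pass an adjusted p of 0.05, and the points run from −1.43 (Plxnc1) to 2.17 (Plxna4).

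The libraries held 27851677 to 31072338 counts, and the biological coefficient of variation was 7.97%. All 10 fibroblast markers were above 1 CPM (counts per 1000000 of a library's TMM-scaled total), with summed levels of 50061 to 60273 CPM with vehicle and 47108 to 53060 CPM with TGFβ, and 8 of the 10 were called lower. All 11 endothelial markers were above 1 CPM too, and their sum was 514, 583 and 804 CPM in A, B and C and 470, 521 and 658 CPM in D, E and F. In bulk RNA, fewer cells of a type and less RNA per cell cannot be told apart. The 9 listed leukocyte markers summed to 57.2 to 77.9 CPM with vehicle and 52.7 to 76.6 CPM with TGFβ. Of the 9 listed Schwann cell and neuron markers, which summed to 74.0 to 119 and 169 to 244 CPM, *Tubb3* gave most of the sum and alone rose, while *Sox10* was near 0. The 9 listed cardiomyocyte markers summed to 38.7 to 59.9 and 27.5 to 40.6 CPM, nearly all *Tnnt2*, with *Myh6*, *Actn2* and *Myl2* near 0. Pericyte markers summed to 305 to 385 and 206 to 274 CPM (*Notch3* fell and *Cspg4* rose), and mesothelial markers to 25.1 to 91.8 and 16.8 to 48.6 CPM, highest in A and D.

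The semaphorins that changed all fell: 2 of the 7 class 3 genes (28.6%) and 4 of the 12 others tested (33.3%). Of all genes tested, 40.7% were called and 20.1% were called lower. *Sema6d* (ENSMUSG00000027200), a membrane-bound ligand of plexin A1, was at 69.9, 76.8 and 69.5 CPM in the vehicle libraries and at 31.7, 32.6 and 33.0 CPM in the TGFβ libraries. The 2 groups were far apart, and each varied little. Its log2 fold change was −1.15 (SE, its standard error, 0.05, with adjusted p = 7.81e-06, edgeR), and between −1.18 and −1.10 with any 1 library left out. *Sema5a*, whose product carries thrombospondin repeats, fell by 0.59 on the log2 scale. *Sema4b* (−0.31) and *Sema6a* (−0.45), both membrane-bound, also fell. Their calls needed most of the libraries, since the adjusted p rose to as much as 0.0925 for *Sema4b* without A, C, D or E and 0.0979 for *Sema6a* without B, C, D or E, with log2 fold changes of −0.40 to −0.25 and −0.57 to −0.30. The other 8 tested lay between −0.46 (*Sema6b*) and 0.52 (*Sema4f*).

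*Sema3f* (ENSMUSG00000034684), a secreted ligand of neuropilin-2, was at 67.8, 50.0 and 72.6 CPM with vehicle and 31.2, 21.6 and 39.3 CPM with TGFβ. *Sema3b* (ENSMUSG00000057969), its neighbour in the genome, was at 9.36, 10.4 and 13.8 CPM with vehicle and 4.42, 5.30 and 7.05 CPM with TGFβ. For both genes every TGFβ library was below every vehicle library, and the highest library of each group was C or F. The log2 fold change was −1.05 for *Sema3f* (SE 0.21, adjusted p = 0.00626, edgeR) and −0.997 for *Sema3b* (SE 0.20, adjusted p = 0.00565). *Sema3d* had the highest level per length of the class, 31.4 ± 1.61 CPM per kilobase (SD, n = 3) with vehicle and 33.4 ± 4.37 with TGFβ, and did not pass (log2 fold change 0.09, 95% interval −0.13 to 0.30). Nor did *Sema3a* (0.39), *Sema3c* (−0.31), *Sema3e* (0.84) and *Sema3g* (−0.56) pass. *Sema3e*, the ligand of plexin D1, had an adjusted p of 0.0746, with 5.31, 2.39 and 3.35 CPM in A to C and 9.28, 5.62 and 4.98 CPM in D to F. The groups overlapped, and the gene passed with DESeq2, without the low-count filter and without library A.

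Of the 8 plexins tested, 1 rose and 3 fell (50.0% called, against 40.7% of all genes). *Plxna4* (ENSMUSG00000029765), a receptor for class 6 semaphorins and, with neuropilin-1, for Sema3A, had the largest difference of the guidance genes tested. It was at 37.3, 31.5 and 33.1 CPM with vehicle and at 156, 162 and 141 CPM with TGFβ, a mean of 34.0 ± 3.02 against 153 ± 10.7 CPM (SD, n = 3 each). Every TGFβ library was more than 3 times the highest vehicle library. The rise was 4.5-fold, a log2 fold change of 2.17 (SE 0.08, adjusted p = 3.89e-06, edgeR). Its share of the summed plexin level per kilobase went from 1.42% to 7.06%.

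*Plxnc1* (ENSMUSG00000074785), the receptor of Sema7A, went the other way, from 13.1, 17.2 and 16.7 CPM with vehicle to 5.19, 6.98 and 5.23 CPM with TGFβ. The highest TGFβ library was well under the lowest vehicle library. The log2 fold change was −1.43 (SE 0.15, adjusted p = 0.00028, edgeR), and *Sema7a* itself did not pass (0.21, 95% interval −0.30 to 0.73). *Plxnb2*, the plexin with the highest level per length (109 ± 1.62 CPM per kilobase with vehicle), fell by 0.23 on the log2 scale, to 92.7 ± 5.96 CPM per kilobase. *Plxnd1*, known from endothelial cells, fell by 0.56, from 167, 191 and 238 CPM to 115, 124 and 165 CPM. Library F nearly reached A, and without B, C, D or E the call was lost (adjusted p of up to 0.0970, log2 fold change −0.74 to −0.41). *Plxna1* (−0.00, 95% interval −0.20 to 0.20), *Plxna2* (−0.10), *Plxna3* (−0.23) and *Plxnb1* (−0.01) did not pass, and the sign of *Plxna1* turned without the low-count filter (0.00).

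Of the neuropilins, coreceptors of class 3 semaphorins and VEGF, *Nrp1* fell and *Nrp2* did not pass. *Nrp1* was at 105, 124 and 126 CPM with vehicle and 77.6, 80.3 and 76.9 CPM with TGFβ. The TGFβ libraries lay within a narrow band below every vehicle library. Its log2 fold change was −0.60 (SE 0.07, adjusted p = 0.000441, edgeR). That of *Nrp2* was −0.10 (95% interval −0.33 to 0.14).

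**Figure D2:**
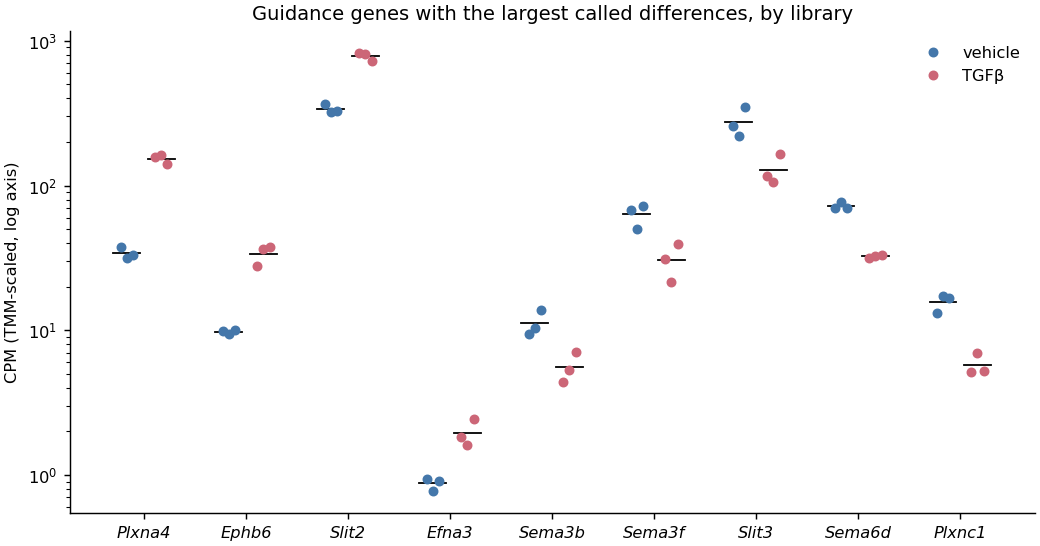
CPM on a log axis in each library (points, blue for vehicle and red for TGFβ) with the mean of the 3 libraries (black line), for the 8 guidance genes with a called log2 fold change beyond 1 in size and Sema3b just under it. The 2 groups are apart for each of the 9 genes, from 2.17 for Plxna4 down to −1.43 for Plxnc1.

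*Slit2* and *Slit3*, secreted ligands of the Robo receptors, moved in opposite directions. *Slit2* (ENSMUSG00000031558) was at 367, 324 and 326 CPM with vehicle and 821, 808 and 727 CPM with TGFβ. *Slit3* (ENSMUSG00000056427) was at 259, 219 and 351 CPM with vehicle and 117, 106 and 164 CPM with TGFβ. Neither gene's groups overlapped, and *Slit3* varied more within each group, with C and F highest. The log2 fold change was 1.21 for *Slit2* (SE 0.07, adjusted p = 2.00e-05, edgeR) and −1.10 for *Slit3* (SE 0.21, adjusted p = 0.00418). With any 1 library left out, these were 1.18 to 1.27 and −1.32 to −0.89.

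Per kilobase of transcript, *Slit3* was above *Slit2* on average with vehicle (52.9 ± 12.9 against 43.5 ± 3.11 CPM per kilobase, SD, n = 3) and below it with TGFβ (24.7 ± 5.88 against 101 ± 6.57). *Slit2* thus made up 48.7%, 49.7% and 38.4% of the summed Slit level in A, B and C and 82.5%, 83.6% and 74.8% in D, E and F. The shares of the groups did not overlap, and the exact permutation p was 0.1, the smallest that 3 libraries against 3 allow (two-sided). The level of *Slit2* depends on the gene model: over all annotated exons it was 13.3 and 30.9 CPM per kilobase, and that of *Slit3* 45.6 and 21.2, with the same order in each group.

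Of the Robo receptors, *Robo1* rose from 53.4, 58.8 and 53.1 CPM to 82.9, 85.0 and 70.3 CPM. The groups were separate, and the log2 fold change was 0.53 (SE 0.08, adjusted p = 0.00145, edgeR). *Robo1* was also the Robo with the highest level per length, 8.35 ± 0.492 CPM per kilobase of coding transcript with vehicle, but over all annotated exons *Robo4* (4.15) was above it (3.34). *Robo2* (0.17, 95% interval −0.17 to 0.50) and the endothelial *Robo4* (−0.27, −0.85 to 0.31) did not pass.

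The netrin and Unc5 genes that were tested, 3 of each, all passed, in mixed directions, where 40.7% of all genes tested passed. *Ntn4*, a netrin of basement membranes and the netrin with the highest level per length, was at 49.6, 46.8 and 57.8 CPM with vehicle and 74.2, 67.9 and 95.9 CPM with TGFβ. *Ntn1*, the classical secreted netrin, was at 34.0, 41.4 and 49.3 CPM with vehicle and 22.4, 26.8 and 31.1 CPM with TGFβ. The groups were separate for both genes, with C and F the highest of each. The log2 fold changes were 0.63 (SE 0.13, adjusted p = 0.0073, edgeR) and −0.63 (SE 0.15, adjusted p = 0.0134). *Ntn4* made up 57.3% of the netrin level per length with vehicle and 74.7% with TGFβ. *Ntng2*, a lipid-anchored netrin, fell by 0.34 on the log2 scale. It is uncertain, since it shares exonic sequence with *6530402F18Rik* on the same strand, which had 149% as many counts, and its call was lost without B, C, D or E (adjusted p of up to 0.112, log2 fold change −0.41 to −0.28) and with DESeq2 or no low-count filter (up to 0.0949).

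*Unc5b* stood at 105 ± 4.89 CPM per kilobase with vehicle and 127 ± 2.90 with TGFβ, the highest level per length of the guidance genes with TGFβ. It was at 648, 615 and 591 CPM with vehicle and 761, 727 and 747 CPM with TGFβ, a log2 fold change of 0.27 (SE 0.05, adjusted p = 0.00403, edgeR). *Unc5c* fell by 0.67 and *Unc5a* by 0.41, both from under 12 CPM. Exons of *Unc5a* overlap *Hk3* by 34 bases, and without library E its adjusted p was 0.0629 (log2 fold changes −0.49 to −0.30 over the 6 libraries left out). *Unc5b* was 96.3% of the summed Unc5 level per length with vehicle and 97.8% with TGFβ.

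All 5 EphB receptors passed, 2 higher and 3 lower, and neither of the 2 tested ephrin-B genes did. These families are small, and 40.7% of all genes tested passed. *Ephb6* (ENSMUSG00000029869), an Eph receptor without kinase activity, was at 9.84, 9.37 and 9.99 CPM with vehicle and 27.7, 36.3 and 37.4 CPM with TGFβ. The vehicle libraries were nearly equal, and D was the lowest of the TGFβ libraries. The rise was 3.47-fold, a log2 fold change of 1.80 (SE 0.12, adjusted p = 3.38e-05, edgeR). Its share of the summed EphB level per length went from 4.87% to 15.7%.

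*Ephb3* rose by a log2 fold change of 0.30 (SE 0.06, adjusted p = 0.00442, edgeR), and *Ephb1* (−0.85), *Ephb2* (−0.28) and *Ephb4* (−0.13) fell. *Ephb4*, a receptor of ephrin-B2, had the highest level per length of the EphB genes and was at 93.1, 92.8 and 98.3 CPM with vehicle and 85.9, 85.1 and 89.4 CPM with TGFβ. The calls of the 3 falls needed most of the libraries. *Ephb1* (under 5 CPM) lost its call without A, C, D or E (adjusted p of up to 0.0982, log2 fold change −1.11 to −0.64). *Ephb2* lost it without A, B, C, E or F (up to 0.0741, −0.38 to −0.23), and *Ephb4* without A, B, C, D or E (up to 0.135, −0.15 to −0.10) and with DESeq2 or no low-count filter (up to 0.105). The ligands *Efnb1* (−0.07, 95% interval −0.20 to 0.06) and *Efnb2* (0.20, −0.20 to 0.60) did not pass, and *Efnb1* had the higher level per length.

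Of the EphA side, *Efna3* rose and *Efna5* fell among 5 ligands, and *Epha2* rose and *Epha7* fell among 5 receptors tested. Each is 40% called, near the 40.7% of all genes. *Efna3* (ENSMUSG00000028039) was at 0.943, 0.775 and 0.905 CPM with vehicle and 1.83, 1.61 and 2.46 CPM with TGFβ. These are low levels with separate groups, and the log2 fold change was 1.16 (SE 0.22, adjusted p = 0.004, edgeR). *Efna3* overlaps *Gm15998* on the other strand, which had 21.2% as many counts, so that its level is uncertain where strand was not used in counting. *Efna5*, the ephrin-A with the highest level per length, was at 40.1, 38.4 and 37.7 CPM with vehicle and 31.5, 30.2 and 29.5 CPM with TGFβ (log2 fold change −0.35, SE 0.05, adjusted p = 0.000933). *Efna1* (−0.45), *Efna2* (−0.38) and *Efna4* (−0.10) did not pass.

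*Epha7* fell by 0.41 on the log2 scale. *Epha2*, the EphA gene with the highest level per length, was at 46.4, 36.1 and 39.4 CPM with vehicle and 58.9, 45.8 and 50.8 CPM with TGFβ. Its groups overlapped, since E was below A, and its call (log2 fold change 0.35, adjusted p = 0.0408, edgeR) was lost without B, C, D or F (up to 0.135, log2 fold change 0.25 to 0.46) and with upper quartile scaling (0.0502). *Epha3* (−0.28), *Epha4* (−0.13) and *Epha1* (0.90, 95% interval −0.60 to 2.40) did not pass. *Epha1* shares an exonic stretch with *Zyx*, a far more abundant gene on the other strand, and its value is uncertain.

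The other 10 members were too low to test, with no more than 13 counts in any library. *Plxnb3* had 13, 11 and 7 counts in A to C and 2, 1 and 5 in D to F, and *Slit1* 6, 8 and 5 and 9, 11 and 9. *Epha5*, *Epha6* and *Epha10* had at most 3 counts, *Ntng1* and *Unc5d* at most 5, and *Efnb3*, *Robo3* and *Sema5b* at most 10. *Epha8*, *Ntn3* and *Ntn5*, which the rule would also take, were not analysed here.

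Among the 57 tested genes the levels per length ran from 0.102 (*Sema4f*) to 109 (*Plxnb2*) CPM per kilobase with vehicle. After *Plxnb2* and *Unc5b* (105), the highest by the coding transcript were *Slit3* (52.9), *Slit2* (43.5), *Plxna1* (34.7), *Nrp1* (32.9) and *Sema3d* (31.4). *Plxnb2* and *Unc5b* did not differ beyond their spread with vehicle, nor did *Slit3* and *Slit2*, nor *Plxna1*, *Nrp1* and *Sema3d*. With TGFβ the order was *Unc5b* (127), *Slit2* (101), *Plxnb2* (92.7), *Plxna1* (34.7), *Sema3d* (33.4) and *Slit3* (24.7). This order depends on the gene model. Over all annotated exons, *Unc5b* (98.7), *Plxnb2* (91.4), *Slit3* (45.6), *Plxna1* (34.7), *Plxnd1* (27.2), *Sema3d* (23.0) and *Ephb4* (20.4) led with vehicle, and *Slit2* (13.3) and *Nrp1* (12.1) stood below them.

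**Figure D3:**
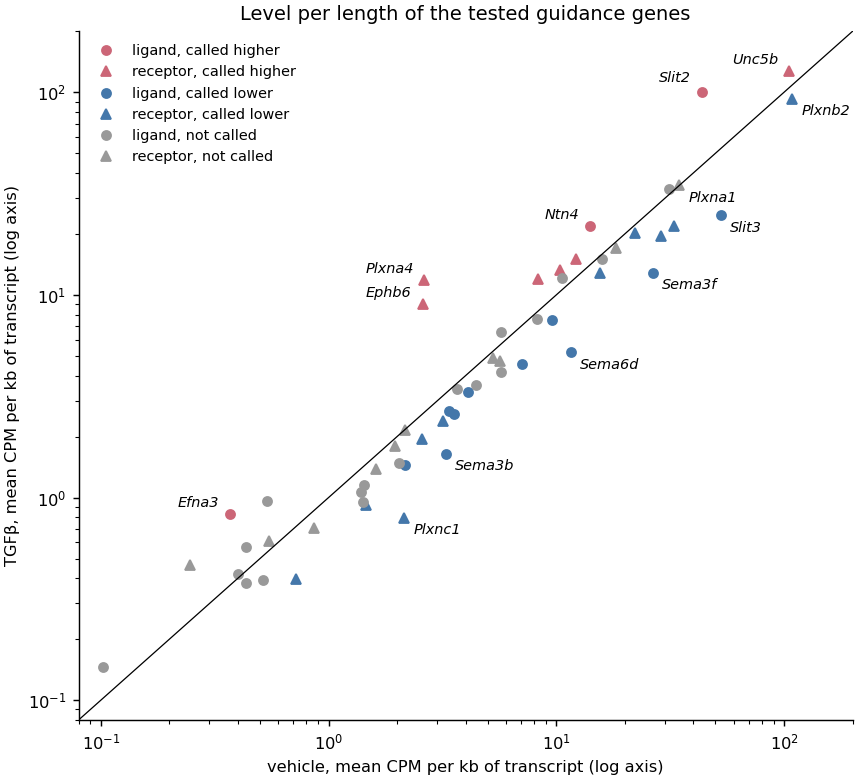
Mean CPM per kilobase of the coding transcript with vehicle (x axis) and with TGFβ (y axis), both log axes, for the 57 tested guidance genes. Circles are ligands and triangles receptors, coloured by call, and the line marks equal levels. Plxna4 and Ephb6 rise from 2.64 and 2.59 to 11.9 and 8.99, and Slit2 and Slit3 stand on opposite sides of the line.

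The endothelial marker sum was highest in C among the vehicle libraries and in F among the TGFβ libraries. Of the 57 tested members, 22 (38.6%) were also highest in C and in F, as were 19.6% of all 14334 genes tested. The order of the other libraries was not compared. Of these 22, 10 were called lower, 2 higher (*Ephb6* and *Ntn4*) and 10 did not pass. Among all 57 tested members, 20 were called lower, 9 higher and 28 did not pass. The calls of all genes with that pattern were not counted. *Robo4* was at 17.1, 18.8 and 30.1 CPM in A to C and 15.4, 15.3 and 24.0 CPM in D to F. *Plxnd1* and *Slit3* were likewise highest in C and F of their groups. *Slit2*, *Plxna4*, *Sema6d*, *Nrp1* and *Plxnc1* were not among the 22. Without library C the log2 fold change of *Slit3* was −0.89 (adjusted p = 0.00806, edgeR) and that of *Plxnd1* −0.41 (adjusted p = 0.0704). None of the 11 endothelial markers passed in the unpaired tests of edgeR, DESeq2 or limma-voom, and 0 of them had an unadjusted p under 0.05 in edgeR. The log2 fold changes of *Cldn5* (−0.54), *Cdh5* (−0.38), *Kdr* (−0.36), *Pecam1* (−0.34), *Esam* (−0.31), *Tie1* (−0.28), *Egfl7* (−0.26) and *Vwf* (−0.07) were below 0. Those of *Emcn* (0.01), *Erg* (0.03) and *Tek* (0.25) were above. With SE of 0.12 (*Tek*) to 0.30 (*Cldn5*), these tests could miss falls of this size. The part of endothelial RNA in these differences was not tested.

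**Figure D4:**
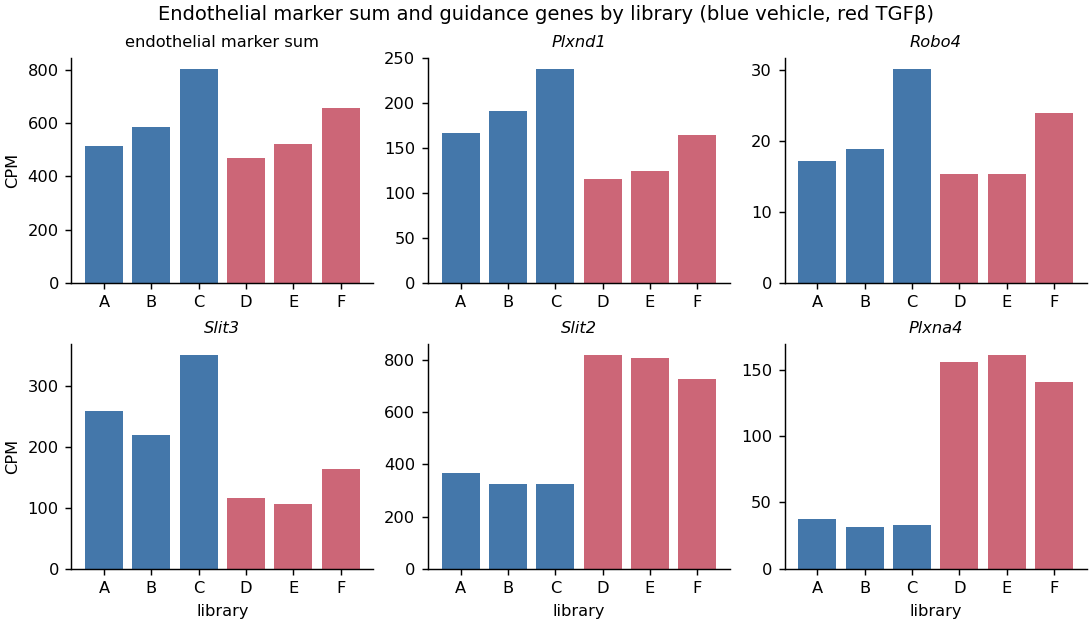
CPM in each library (bars, blue for vehicle A to C and red for TGFβ D to F) of the summed 11 endothelial markers and of 5 guidance genes, each on its own axis from 0. The marker sum, Plxnd1, Robo4 and Slit3 are highest in C and F of their groups, whereas Slit2 and Plxna4 are not.

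Several members are neighbours in the genome (GRCm38, GENCODE M21). *Sema3b* (chromosome 9, 107597674 to 107609229) and *Sema3f* (107681500 to 107710475) lie 72.3 kb apart on the minus strand, and both fell by about the same amount. Between them lie *Gnai2*, which did not pass (−0.11, adjusted p = 0.115, edgeR), and *Slc38a3* and *Gnat1*, too low to test. *Efna1*, *Efna3* and *Efna4* lie together on chromosome 3 between 89271733 and 89338028, and of the 3 only *Efna3* passed. *Sema3d*, *Sema3a* and *Sema3e* follow each other on chromosome 5 from 12383385 to 14256689, and none of them passed. *Robo1*, which rose, lies 846 kb from *Robo2*, which did not pass, and *Ephb6*, which rose, 738 kb from *Epha1*.

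Of a list of coreceptors, other ligands and cytoplasmic partners of these systems, 48 of 88 tested passed (54.5%, against 40.7% of all genes). The genes called higher were 30 (34.1%, against 20.5% of all genes) and those called lower 18 (20.5%, against 20.1%). Beyond a log2 fold change of 1 in size, 7.95% were called, near the 6.77% of all genes. The list was chosen with earlier results of these data known. The median log2 fold change of the 88 was 0.06. The 5 largest rises were *Ngef* (2.22), a guanine nucleotide exchange factor of Eph receptors, *Cspg4* (1.45), a proteoglycan also among the pericyte markers, *Vegfa* (1.04), a ligand of neuropilin-1, *Chn2* (0.81), a Rac GTPase-activating protein, and *Mical2* (0.71), an actin-oxidising enzyme of the plexin partner family. *Ngef* was at 0.503, 0.506 and 0.670 CPM with vehicle and 2.19, 2.11 and 3.54 CPM with TGFβ, low in all libraries with separate groups. *Vegfa* was at 145, 135 and 126 CPM with vehicle and 291, 275 and 273 CPM with TGFβ. Every TGFβ library had at least 1.5 times the level of each vehicle library.

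The falls with the largest values given here were *Ablim3* (−1.59), an actin-binding LIM protein, *Met* (−1.37), the receptor of hepatocyte growth factor that can pair with class B plexins, *Vegfc* (−1.02), a ligand of neuropilin-2, and *Itga1* (−0.95), a collagen-binding integrin subunit. *Met* was at 26.9, 19.1 and 23.1 CPM with vehicle and 10.7, 7.91 and 8.10 CPM with TGFβ. *Vegfc* was at 60.6, 67.6 and 82.3 CPM with vehicle and 32.4, 33.8 and 37.5 CPM with TGFβ. For both genes the groups were separate. Of the netrin receptors, *Neo1* rose (0.23), and *Dcc* was too low to test.

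**Figure D5:**
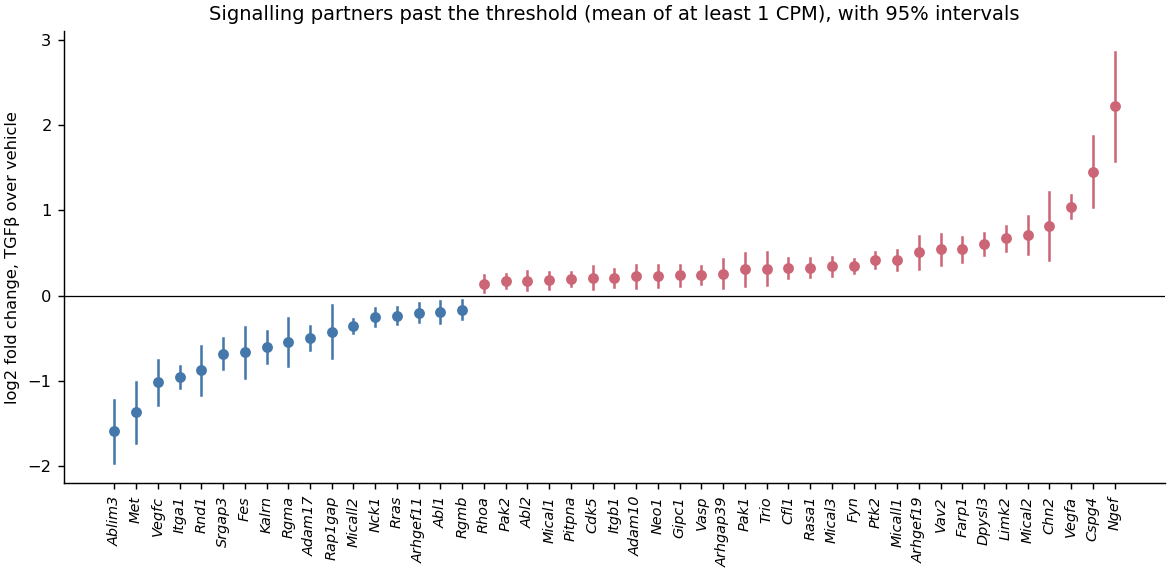
Log2 fold change of TGFβ over vehicle (points) with its 95% interval (lines) for the 47 of 48 signalling partners past an adjusted p of 0.05 whose mean over the 6 libraries was at least 1 CPM, in order of size. The 30 red points are higher and the 17 blue points lower with TGFβ, from −1.59 (Ablim3) to 2.22 (Ngef).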

How the data were processed

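RNA was sequenced from 6 samples, 3 vehicle and 3 TGFβ. Per the labels and the study's methods, the authors made strand-marking libraries from poly(A) RNA and read 75 bases from 1 end. Their reference was mm10 and their test DESeq2. The aligner, the counter, the annotation and the use of strand are not given in the sources used here. The low serum step lasts 16 h per the labels and longer in the study's methods. The authors deposited 1 table of read counts per gene, whole numbers without normalization. Its columns of the authors' mean, log2 fold change, standard error, test statistic and p-values were not used. ATAC-seq was not analysed here.

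TMM factors, the filterByExpr filter (14334 of 25140 genes kept) and the quasi-likelihood test were run on the counts in edgeR 4.0.16 (R 4.3.3), with Benjamini-Hochberg adjustment over all genes kept and a threshold of 0.05. Standard errors are the log2 fold change over the square root of F. CPM are counts over TMM-scaled library sizes, and levels per length divide them by the transcript with the longest coding sequence in GENCODE M21. Shares of a family were tested by exact permutation, two-sided. Library totals were 27851677 to 31072338 counts. Pairs of replicates differed by more than sampling noise (chi-square per gene of 7.41 to 25.0), and each was taken as a separate sample. That difference does not show that the replicates are independent. The labels do not say whether replicates came from separate animals, and p-values then measure only the spread between these samples. Only the edgeR, limma-voom and DESeq2 fits were tried on simulated counts. Those had the same dispersion for every gene and far fewer changed genes than were called here, so they do not show how the fits do on these data. The permutation, share and motif steps were not simulated.

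The alternatives tried were size factors of DESeq2 or upper quartile scaling within edgeR, DESeq2 1.42.0 itself, limma-voom (limma 3.58.1), no low-count filter, a minimum of 1 CPM in 3 libraries, leaving out each library, and stricter thresholds (adjusted p of 0.01, or a log2 fold change beyond 1). Every called member was named, with all libraries for those near or beyond a log2 fold change of 1 and for further members the text turns on, the latter chosen after their values were seen. The family member with the highest level per length was named, as were the 5 largest rises and falls of the partners. A few genes covered by these rules were left out of the text and are not reported here. The members and lists were chosen with earlier results of these data known.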

Additional observations from a re-analysis of the deposited data

How the results depend on the processing

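Across the other scalings, tools and filters, 28 or 29 guidance genes were called (29 in the test reported). Of all 14334 genes tested, edgeR called 5840 with DESeq2 size factors and 5760 with upper quartile scaling, and limma-voom 5815 (5828 in the test reported). Other fits tested other numbers of genes. DESeq2 called 5020 of 15392, edgeR without the low-count filter 5660 of 25140 and with 1 CPM in 3 libraries 5613 of 12731. At an adjusted p of 0.01, 16 were called, 8 of them lower, and all genes were not counted at that threshold. Beyond a log2 fold change of 1, 8 were called (14.0%, against 6.77% of all genes), 4 higher and 4 lower. Beyond 1, 7 signalling partners were called (7.95%, near the 6.77% of all genes), 3 higher and 4 lower. With any 1 library left out, 22 to 31 guidance genes were called, 8 to 10 higher and 13 to 22 lower. The 13 came without library E and the 22 without library F, although both fits held the same number of libraries. Of all genes, 4489 of 14553 tested (without B) to 5481 of 14565 tested (without F) were called with 1 library left out. Of the 29, 20 kept their call without any 1 library, 26 under every other scaling, tool and filter that tested them, and none changed direction. The 9 that lost their call without at least 1 library were all genes called lower, except *Epha2*. Another 7 members, not called in the test reported, were called under an alternative. For *Efna1*, *Efnb2*, *Plxna3*, *Sema3d*, *Sema6b* and *Sema6c* this took leaving out 1 library. *Sema3e* also passed with DESeq2 and without the low-count filter. Of genes that did not pass, *Plxna1* changed sign without the low-count filter (0.0041) and ranged from −0.052 to 0.082 with any 1 library left out. The same range was −0.19 to 0.0037 for *Nrp2*, −0.19 to 0.0023 for *Plxna2*, −0.10 to 0.11 for *Plxnb1*, −0.53 to 0.020 for *Robo4*, −0.11 to 0.41 for *Sema4d* and −0.0046 to 0.47 for *Sema7a*. Other scalings moved the median of all genes by no more than 0.02 on the log2 scale. No paired analysis was possible because the count columns carry no replicate numbers. Genes under about 1 CPM, such as *Epha1* and *Sema4f*, had too few counts to show small differences.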
